A study of Rattus norvegicus with 6 samples.

Results

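The miR-148 and miR-152 family was described in small RNA from the lens capsules of Sprague Dawley rat pups. Its members were the rat names miR-148a, miR-148b, and miR-152 of the count table, on either arm, which gave 6 of the 910 names listed (763 of them rat). All 6 passed the filter on low counts, as did 341 names in all. The pups were 8 days old at the start, per the study's methods, and the days below count the experiment and not age. The control group was 3 pups injected under the skin of the neck with saline on days 3, 5, and 7. The Na2SeO3 group was 3 pups given sodium selenite at 20 μmol/kg on the same days, and the lens was taken on day 15 in both groups. Selenite given to young rats clouds the lens nucleus quickly and serves as a model of cataract. The control libraries are titled WT (wild type) and the Na2SeO3 libraries Model, and no other allele or agent is given in the labels for either group. The library of each animal came from the capsular membrane of a lens, that is, the capsule with whatever cells remain attached to it.

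A miRNA gene is transcribed into a hairpin, and cutting of the hairpin leaves a 5p and a 3p strand, of which one is usually kept in the silencing complex and the other degraded. Bases 2 to 8 of the kept strand, called the seed, pair with target mRNAs. miR-148a, miR-148b, and miR-152 come from separate genes but share a seed on their 3p strands, so they are grouped as one family. The family is known for lowering the DNA methyltransferase Dnmt1, and miR-148a also for lowering the cholesterol transporter Abca1. In the GRCr8 annotation Mir148b lies inside Copz1 and Mir152 inside Copz2, paralogous genes for the zeta subunit of the COPI vesicle coat, whereas no listed gene overlaps Mir148a, whose nearest neighbours are Cux1-ps1 and LOC102549423. Mir148a is on chromosome 4, Mir148b on chromosome 7, and Mir152 on chromosome 10. The build behind the counts is not given in the sources used here, so no coordinates are printed.

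Mature sequences were found in RefSeq (GRCr8) for 5 of the 6 members, all except rno-miR-148b-5p. The 3p strands are shown first because they carry nearly all reads of the family and share the seed, which is in capitals, and they read 5′ to 3′:
rno-miR-148a-3p: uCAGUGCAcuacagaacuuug
rno-miR-148b-3p: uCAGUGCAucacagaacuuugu
rno-miR-152-3p: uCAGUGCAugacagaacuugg

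Over the first 21 bases, counted from 1 at the 5′ end, miR-148a-3p and miR-148b-3p shared 19 bases and differed by C9U and U10C. miR-148a-3p and miR-152-3p shared 18 bases and differed by C9U, U10G, and U20G, and miR-148b-3p and miR-152-3p shared 19 and differed by C10G and U20G. Beyond these, miR-148b-3p is longer by its last base, at 22 against 21 bases. No difference lies in the seed. Reads of such near-identical strands can be assigned to the wrong name, so the counts of the rarer members carry this uncertainty, and its size was not tested.

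The 5p strands of miR-148a and miR-152, the 2 with a sequence here, do not share a seed, as the capitals show:
rno-miR-148a-5p: aAAGUUCUgagacacucugacuc
rno-miR-152-5p: aGGUUCUGugauacacuccgacu
The hairpin of Mir148a (97 bases) shows where the strands lie, with both mature strands in capitals, the 5p strand first:
Mir148a: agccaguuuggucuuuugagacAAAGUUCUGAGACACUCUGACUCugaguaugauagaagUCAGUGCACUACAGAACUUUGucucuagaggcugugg

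The counts summed to 1806596 to 2829903 in the control libraries and to 663096 to 968151 in the Na2SeO3 libraries, so the Na2SeO3 values rest on fewer counted reads. The raw reads per miRNA library listed in the paper overlap between the groups. A smaller part of the reads was thus counted as miRNA in the Na2SeO3 libraries, and the reason was not tested. A strand had to reach 1.06 to 1.66 CPM (counts scaled to the library total) in the control group, or 3.10 to 4.52 CPM in the Na2SeO3 group, to give 3 counts, and these limits and the intervals below cover counting error only. Markers of several tissues were counted. Lens epithelium markers (miR-184, miR-204-5p, miR-205, and miR-26a-5p) took 12.0 to 13.4% of the counts in the control and 7.74 to 9.14% in the Na2SeO3 libraries. They are not specific to lens epithelium, since miR-184 is also a miRNA of the cornea. Markers of sensory cells (miR-183-5p, miR-182, and miR-96-5p) took 14.8 to 16.7% and 19.7 to 21.2%, of neural cells 3.00 to 3.16% and 4.13 to 4.81%, and of skeletal muscle 0.632 to 0.759% and 1.44 to 1.47%. Leukocyte markers overlapped between groups, at 0.0125 to 0.0159% and 0.0107 to 0.0165%. Erythroid markers took 0.0219 to 0.0285% and 0.0418 to 0.0537%, and 1 of the 4, miR-144-3p, was at 0 in a library. No other listed marker was at 0 in any library. In edgeR's quasi-likelihood test, 3 of the 4 lens markers were lower, all 4 muscle markers, 1 of the 3 erythroid markers tested, and 2 of the 5 neural markers were higher, and the sensory (log2 fold changes of -0.015 to 0.21) and leukocyte markers (-0.36 to 0.18) did not pass, with or without adjustment. Of all names tested, 13.8% were lower and 20.8% higher by the same rule. The neural markers did not move together: miR-9a-5p, which makes up most of their share, and miR-219a-2-3p were higher, by 0.43 (adjusted p = 0.0478, edgeR) and by 4.26 on the log2 scale, the latter from 4.12 ± 2.28 to 78.4 ± 6.57 CPM (SD, n = 3 each; adjusted p = 2.04e-06 in edgeR), while miR-128-3p, miR-124-3p, and miR-338-3p had log2 fold changes of 0.063, -0.12, and -0.93 and did not pass (adjusted p = 0.0519 in edgeR for the last). The shares of the lens, sensory, neural, muscle, and erythroid markers moved with the group beside every difference given below, and their part in it was not tested. In such bulk libraries fewer cells of a type and less RNA per cell cannot be told apart.

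miR-148a-3p was the most abundant miRNA in 5 of the 6 libraries. It took 19.2%, 19.0%, and 22.3% of all counts in control libraries 1 to 3 and 17.6%, 14.8%, and 20.5% in Na2SeO3 libraries 1 to 3. The groups overlapped, since Na2SeO3 library 3 lay above control libraries 1 and 2. In Na2SeO3 library 2 it ranked 2, behind miR-99a-5p, which held 15.1%, an excess of 1.02-fold. In the other libraries miR-99a-5p came next, and miR-148a-3p exceeded it by 1.16 to 1.71-fold.

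The whole family took 19.5%, 19.4%, and 22.6% of the counts in the control libraries, a mean of 20.5% ± 1.81 (SD, n = 3). In the Na2SeO3 libraries it took 18.0%, 15.1%, and 20.9%, a mean of 18.0% ± 2.90 (SD, n = 3). The 95% binomial intervals (exact Clopper-Pearson) were narrow at this depth, for example 15.1 to 15.2% in Na2SeO3 library 2, so that counting error is small beside the spread between libraries. Within the family, miR-148a-3p held 98.4% ± 0.17 of the reads in the control and 97.9% ± 0.23 in the Na2SeO3 group (SD, n = 3 each). miR-152-3p held 0.904% ± 0.121 and 1.32% ± 0.128, and miR-148b-3p held 0.541% ± 0.041 and 0.657% ± 0.119 (SD, n = 3 each). The 3 5p strands together held 0.131% ± 0.014 and 0.101% ± 0.027 (SD, n = 3 each).

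The levels of the 6 strands covered a wide range and fell in the same order by group mean in both groups, with miR-148a-3p first, then miR-152-3p, miR-148b-3p, miR-148a-5p, miR-148b-5p, and miR-152-5p. This order held in every library, but some neighbours were close. miR-152-3p exceeded miR-148b-3p by 1.54 to 2.43-fold. miR-148b-5p and miR-152-5p had 40 and 38 counts in control library 1. In Na2SeO3 libraries 1 to 3 they had 11 and 10, 21 and 13, and 14 and 12. Except in control library 2, the 95% binomial intervals of their shares overlapped, so counting error could reverse their order. In rank, miR-152-3p was between 38 and 43, miR-148b-3p between 50 and 55, and miR-148a-5p between 112 and 122 in the control and between 149 and 158 in the Na2SeO3 libraries.

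**Figure D1:**
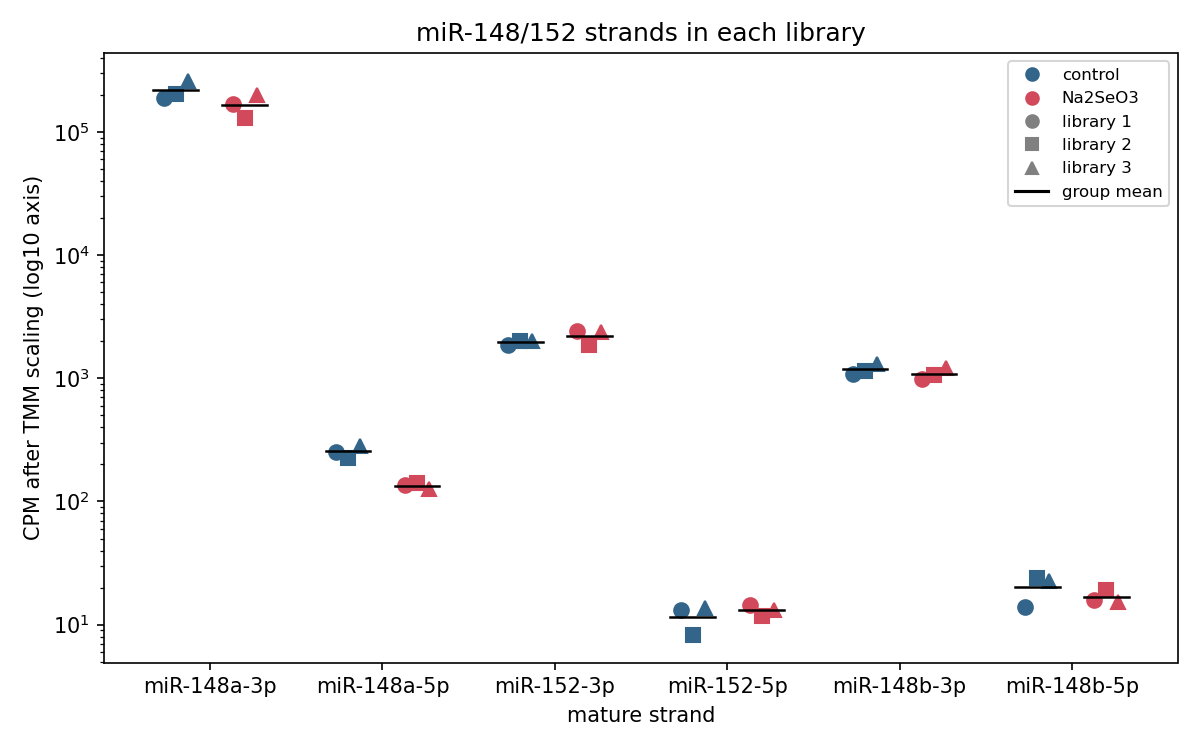
CPM after TMM scaling of the 6 family strands (log10 axis) in each library, with control in blue, Na2SeO3 in red, the shape giving the library number and the black line the group mean. miR-148a-3p stands near 217354 CPM in the control group, far above the other strands, and on this scale only miR-148a-5p has groups that lie apart.

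Levels were then compared between the groups with edgeR's quasi-likelihood test on all 341 names, after TMM scaling, which sets the libraries so that most miRNAs do not change. CPM values of strands are on this scale, and every difference is relative to the other counted miRNAs. A DEmiRNA has an adjusted p-value under 0.05 and an absolute log2 fold change above 1. No member was a DEmiRNA, against 16.4% of all names tested (4.99% lower, 11.4% higher). Without adjustment 2 members passed the p-value threshold of edgeR's test but not that of the fold change. DESeq2 also gave no DEmiRNA in the family, and upper-quartile scaling gave 1, miR-148a-5p at -1.003. By the adjusted p-value alone 1 of the 6 members passed, against 34.6% of all names tested (13.8% lower, 20.8% higher). The groups lay apart in 1 member, against 46.3% of the names. The median log2 fold change was -0.17 over the 6 members, of which 4 were negative and 2 positive, and 0.079 over all names.

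**Figure D2:**
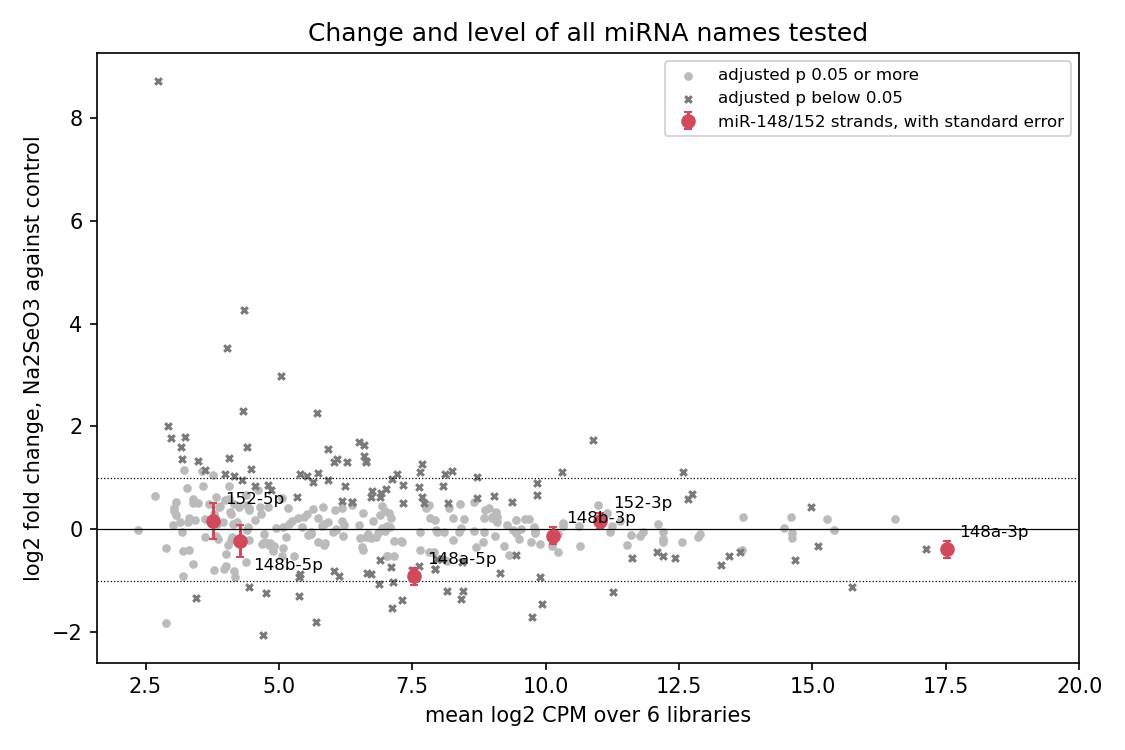
Log2 fold change (Na2SeO3 against control) against the mean log2 CPM of all 341 names tested, with the 6 family strands in red and their standard errors, and dotted lines at the fold change threshold. miR-148a-3p is the point farthest to the right, at a log2 fold change of -0.39, and miR-148a-5p lies just above the lower dotted line, at -0.92.

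miR-148a-5p, the minor strand of the Mir148a hairpin, was the member that fell. The counts of control libraries 1 to 3 were 737, 437, and 439, against 93, 156, and 116 for the Na2SeO3 libraries in the same order. These counts gave 254, 226, and 284 CPM and 135, 141, and 127 CPM, so every Na2SeO3 library lay below every control library. Group averages were 255 ± 29.0 CPM and 135 ± 7.03 CPM (SD, n = 3 each). The log2 fold change was -0.92 with a standard error of 0.17 and passed the test (adjusted p = 0.0012, edgeR). Its 95% interval was -1.28 to -0.55, and 21 of the 341 names had a more negative value. Leaving out any single library kept it from -0.99 to -0.83, with an adjusted p of at most 0.0134 in edgeR. With library size only as the scale the log2 fold change was -0.72 (adjusted p = 0.0052, edgeR).

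miR-148a-3p, the strand that acts on targets, had the largest counts and a difference that did not pass. Control libraries 1 to 3 held 543751, 395229, and 402366 reads of it, or 187667, 204238, and 260157 CPM. In Na2SeO3 libraries 1 to 3 the counts were 116663, 143073, and 180230, or 169728, 129770, and 198061 CPM. Na2SeO3 library 3 was above control library 1, so the groups overlapped. Group averages were 217354 ± 37983 CPM and 165853 ± 34310 CPM (SD, n = 3 each). The log2 fold change was -0.39 with a standard error of 0.16 and a 95% interval of -0.74 to -0.043, and it did not pass (unadjusted p = 0.0305, adjusted p = 0.0766, edgeR). The call depended on the processing. It passed with upper-quartile scaling (-0.47, adjusted p = 0.0289, edgeR) and with DESeq2's Wald test (-0.44, adjusted p = 0.0343), and it moved to -0.19 (adjusted p = 0.246, edgeR) with library size only as the scale. Without Na2SeO3 library 3 it passed (-0.53, adjusted p = 0.0419), whereas without Na2SeO3 library 2 or control library 3 the value was nearer 0, at -0.23 in the closest case. The direction was negative under all 15 alternatives run for this strand.

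**Figure D3:**
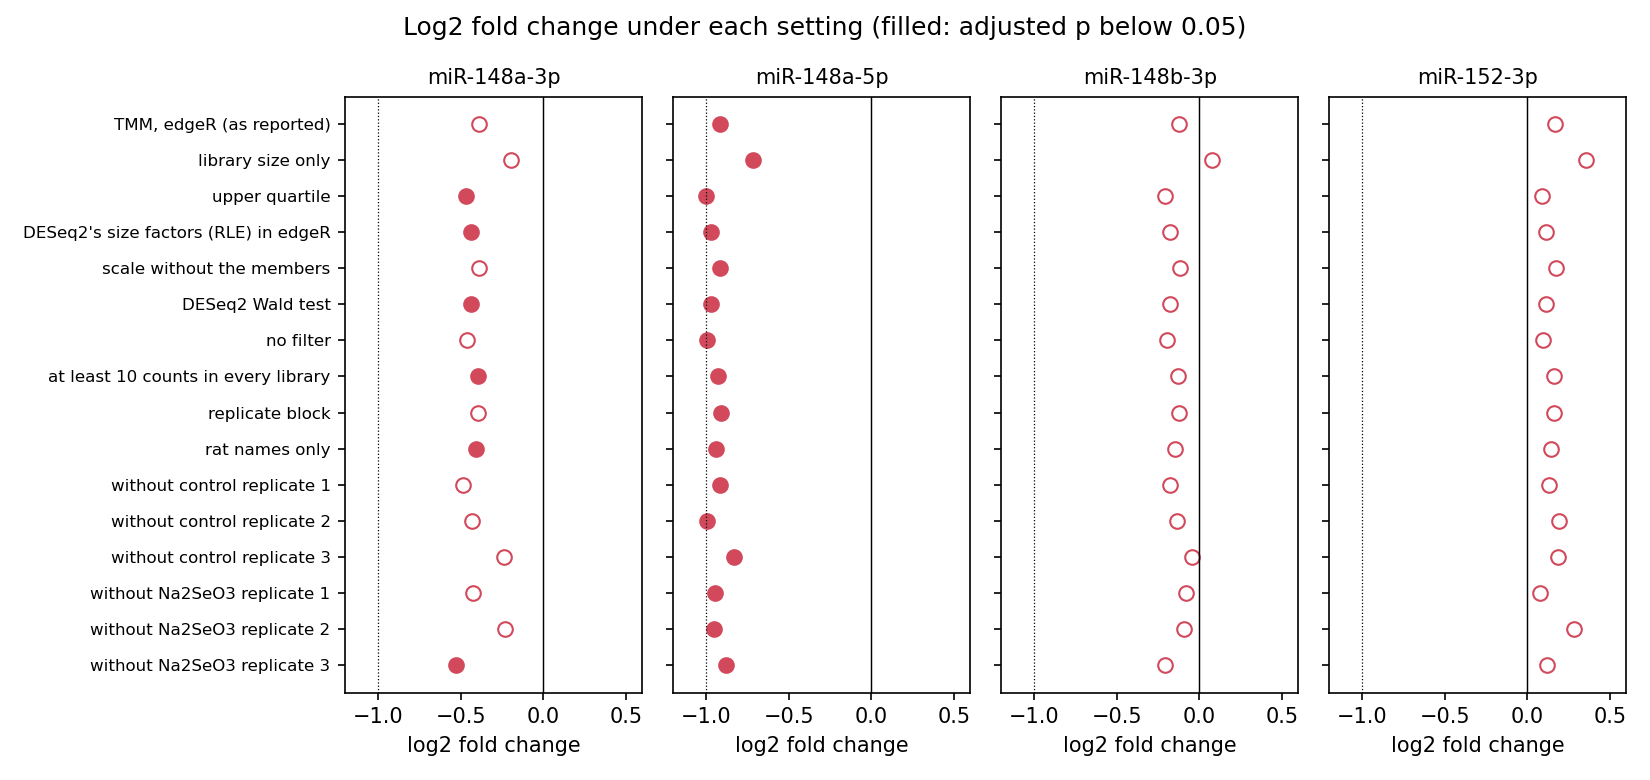
Log2 fold change (Na2SeO3 against control) of the 4 most abundant family strands under each setting of scaling, filter, test, and libraries, one row each, with filled points for an adjusted p-value under 0.05. miR-148a-5p is filled in every row, miR-148a-3p in 6 of the 15 alternatives, and miR-148b-3p and miR-152-3p in none.

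miR-148b-3p, the 3p strand of the hairpin inside Copz1, had 3167, 2236, and 2018 reads in control libraries 1 to 3, against 682, 1162, and 1110 in the Na2SeO3 libraries. The values of 1093, 1155, and 1305 CPM and of 992, 1054, and 1220 CPM overlapped. Group averages were 1184 ± 109 CPM and 1089 ± 118 CPM (SD, n = 3 each), and the log2 fold change was -0.12 with a 95% interval of -0.46 to 0.22 (adjusted p = 0.604, edgeR). The sign was positive, at 0.077, with library size only as the scale. Its 5p strand, miR-148b-5p, rested on 35 to 46 counts in the control and 11 to 21 in the Na2SeO3 libraries, with a log2 fold change of -0.22 and a 95% interval of -0.89 to 0.45 (adjusted p = 0.633, edgeR). It ran from -0.46 without control library 1 to -0.083 without control library 2, and was -0.014 with library size only.

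miR-152-3p, from the hairpin inside Copz2, had 5383, 3919, and 3117 reads in control libraries 1 to 3, against 1658, 2046, and 2155 in the Na2SeO3 libraries. The control libraries held 1858, 2025, and 2015 CPM, a narrow spread of 4.78% of their mean, and the Na2SeO3 libraries 2412, 1856, and 2368 CPM. Na2SeO3 library 2 was the lowest of all 6, while the other two were the highest. Group averages were 1966 ± 93.9 CPM and 2212 ± 309 CPM (SD, n = 3 each), and the log2 fold change was 0.17 with a 95% interval of -0.17 to 0.51 (adjusted p = 0.444, edgeR). It was 0.077 without Na2SeO3 library 1 and 0.28 without Na2SeO3 library 2. As plain shares of the counts, without TMM, the Na2SeO3 libraries all lay higher, at 0.211 to 0.250% against 0.173 to 0.190%, and with library size only as the scale in edgeR the log2 fold change was 0.36 (adjusted p = 0.0777). miR-152-5p rested on 16 to 38 and 10 to 13 counts, with a log2 fold change of 0.16 and a 95% interval of -0.59 to 0.91 (adjusted p = 0.781, edgeR), and without control library 2 the sign was negative, at -0.024. At this depth only large changes of the 5p strands of miR-148b and miR-152 could be seen.

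Ratios between strands of one library need no scaling between libraries. They do depend on how well each strand enters a library, so a ratio is compared only between groups. Of 6 such ratios, 3 were between arms and 3 between 3p strands, and with 3 libraries against 3 a two-sided exact permutation test cannot go below p = 0.1. In every hairpin and library the 3p strand was in excess. For miR-148a there were 738, 904, and 917 reads of the 3p strand for each read of the 5p strand in control libraries 1 to 3, and 1254, 917, and 1554 in Na2SeO3 libraries 1 to 3. The 5p strand made up 0.109 to 0.135% of the pair in the control libraries. In the Na2SeO3 libraries it made up 0.0797%, 0.109%, and 0.0643%, with 95% intervals (exact Clopper-Pearson) of 0.0643 to 0.0976%, 0.0925 to 0.127%, and 0.0532 to 0.0771%. Na2SeO3 library 2 was level with control libraries 2 and 3, and the other two Na2SeO3 libraries were above every control library in the 3p to 5p ratio. The difference in the log2 ratio was 0.51, from 9.73 ± 0.18 to 10.24 ± 0.38 (SD, n = 3 each; two-sided exact permutation test, p = 0.2, adjusted p = 0.3 over the 6 ratios). It was 0.33 without Na2SeO3 library 3 and 0.71 without Na2SeO3 library 2. With nothing added to the counts the groups just lay apart, 917.1 against 916.6 at the nearest, and the p was 0.1 in the same exact permutation test, so the overlap turns on that choice. With 3 libraries against 3 this test could not settle whether the strands of miR-148a differed in their change.

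In the other hairpins the arm ratio did not separate the groups. miR-148b had 48.6 to 79.2 reads of the 3p strand per read of the 5p strand in the control and 55.3 to 79.3 in the Na2SeO3 libraries, a difference of 0.067 in the log2 ratio (exact permutation test, p = 0.8, adjusted p = 0.96, n = 3 per group). miR-152 had 142 to 245 and 157 to 180, a difference of -0.074 (exact permutation test, p = 1, adjusted p = 1, n = 3 per group). Both pairs of ranges overlapped. The sign of the miR-148b value turned without control library 2 (-0.090) or Na2SeO3 library 3 (-0.078), and that of miR-152 without control library 2 (0.17).

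The groups lay apart in the 3 ratios between 3p members, which share their counts. The same held for 47.4% of all 57970 pairs of names tested, so a member pair that lies apart is a common result here. None of the 3 arm ratios lay apart, against 17.8% of the 73 tested pairs of a 3p and a 5p name of one hairpin. For each read of miR-152-3p there were 101, 101, and 129 reads of miR-148a-3p in control libraries 1 to 3 and 70.4, 69.9, and 83.6 in Na2SeO3 libraries 1 to 3. All Na2SeO3 libraries thus held more miR-152-3p per read of miR-148a-3p than any control library. The log2 ratio of miR-152-3p to miR-148a-3p was -6.78 ± 0.20 and -6.22 ± 0.15 (SD, n = 3 each), a difference of 0.56 (exact permutation test, two-sided, p = 0.1, adjusted p = 0.2 over the 6 ratios). Leaving out any single library kept the difference from 0.44 to 0.64.

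In the other 2 member ratios the nearest libraries of the groups nearly touched. There were 172, 177, and 199 reads of miR-148a-3p per read of miR-148b-3p in control libraries 1 to 3 and 171, 123, and 162 in Na2SeO3 libraries 1 to 3. Control library 1 and Na2SeO3 library 1 were the nearest. The difference in the log2 ratio of miR-148b-3p to miR-148a-3p was 0.27 (exact permutation test, p = 0.1, adjusted p = 0.2, n = 3 per group). Without Na2SeO3 library 2 it was 0.13. miR-152-3p held 1.70, 1.75, and 1.54 reads per read of miR-148b-3p in the control and 2.43, 1.76, and 1.94 in the Na2SeO3 libraries. The difference in this log2 ratio was 0.28 (exact permutation test, p = 0.1, adjusted p = 0.2, n = 3 per group). Without Na2SeO3 library 1 it was 0.15. None of the 6 ratios passed, which the exact permutation test does not allow with 3 libraries per group.

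**Figure D4:**
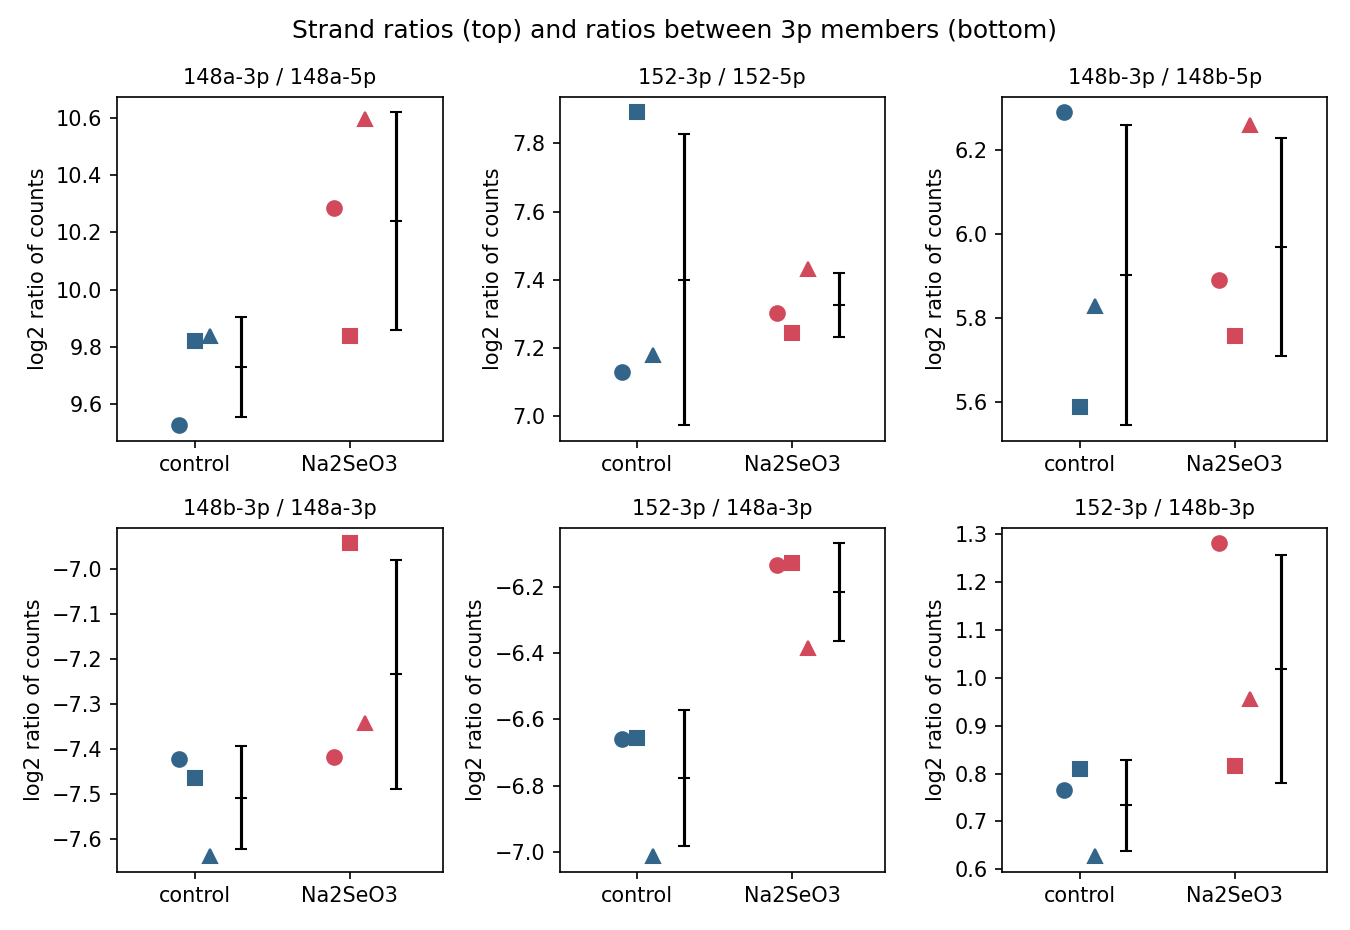
Log2 ratio of counts in each library, with the 3p to 5p strand ratios in the upper row and the ratios between 3p members in the lower row, and the mean and SD (n = 3) beside the points. Each panel has its own axis, which does not start at 0. The groups overlap in the upper row, for miR-148a by the smallest margin, and lie apart in the lower row, most clearly for miR-152-3p to miR-148a-3p.

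Among the 10 most abundant miRNAs, which include miR-148a-3p, 5 passed an adjusted p-value of 0.05 (4 lower and 1 higher, edgeR) and 1, the lens and cornea miRNA miR-184, was a DEmiRNA (13.8%, 20.8%, and 16.4% of all names in the same order). The miRNA next to miR-148a-3p in level, miR-99a-5p, had nearly the same log2 fold change of -0.39 but a smaller standard error of 0.11, and passed (adjusted p = 0.0141, edgeR). Its control libraries varied less, at 163969 ± 1846 CPM (SD, n = 3) against 217354 ± 37983 CPM for miR-148a-3p. miR-184 went from 81388 ± 6580 to 37222 ± 3191 CPM (SD, n = 3 each). miR-182 and miR-96-5p, the other 2 of the 5 most abundant, had log2 fold changes of 0.21 and -0.015 (adjusted p = 0.33 and 0.952, edgeR).

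The rat miRNAs outside the family with log2 CPM values most like those of miR-148a-3p over the 6 libraries were miR-29c-5p (Pearson's r = 0.98), miR-30a-5p (0.976), let-7i-5p (0.957), miR-6329 (0.948), and miR-1298 (0.944). The 6 points share the group difference and the scale, and these r are given as a description. Within the family, r with miR-148a-3p was 0.801 for miR-148b-3p, 0.655 for miR-148a-5p, and 0.164 for miR-152-3p, whereas the 5 above were picked as the highest of all rat names tested. Of the 5, miR-30a-5p passed (log2 fold change -0.52, adjusted p = 0.0371, edgeR), and the other 4 had log2 fold changes of -0.62 to -0.17.

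miRNAs that are known, like this family, for targeting DNA methyltransferase mRNAs were listed for comparison. The list was chosen with earlier results of these data known, so its counts are a description only. Of the 10 listed and tested, 6 fell, none rose, and 4 did not pass, with a median log2 fold change of -0.57 (13.8% of all names were lower, with a median of 0.079). The 6 were miR-29a-3p (-1.70), miR-29b-3p (-1.29), miR-29c-3p (-1.25), miR-143-3p (-0.60), miR-342-3p (-0.57), and miR-101a-3p (-0.56), with adjusted p-values in edgeR's test of at most 0.0269. Without control library 2 or control library 3, 4 of the 10 passed, while over all names, in either direction, 73 and 75 of 340 passed in place of 118 of 341. The miR-29 strands belong to the same family, so their calls are not independent, and they are known for targeting Dnmt3a and Dnmt3b. The most abundant of the 6 was miR-143-3p, at 32073 ± 1473 and 21200 ± 3168 CPM (SD, n = 3 each), far below miR-148a-3p.

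miRNAs known for acting on cholesterol transport genes, as miR-148a does, made a second list, chosen in the same way. Of 11 listed, 7 were tested, 1 rose, 1 fell, and 5 did not pass, beside 20.8% of all names higher and 13.8% lower, and the median log2 fold change was -0.050. miR-30c-5p fell from 6712 ± 996 to 4560 ± 113 CPM (SD, n = 3 each; log2 fold change -0.56, adjusted p = 0.0124, edgeR). The liver miRNA miR-122-5p reached 3.52 on the log2 scale (adjusted p = 0.0135, edgeR), but its counts were 45, 9, and 8 in the control and 2, 24, and 262 in Na2SeO3 libraries 1 to 3, so that the value rests on Na2SeO3 library 3. Neither call held without control library 2 or without control library 3.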

How the data were processed

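Small RNA of 6 lens capsule libraries (3 control, 3 Na2SeO3, 1 rat each) was analysed from 1 table. Cutadapt and Fqtrim were used by the authors for trimming, FastQC for quality, and miRDeep for comparison with the rat genome from Ensembl. They deposited raw read counts per miRNA name, neither normalized nor pooled. Versions and build are not given in the sources used here. The submitters' processing notes also name HISAT2. All 6 columns were matched to samples by title.

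Names were filtered with filterByExpr (minimum count 10), scaled with TMM, and tested with the quasi-likelihood method of edgeR, with group as the only factor and p-values adjusted by Benjamini-Hochberg over 341 names. The thresholds of a DEmiRNA follow the study's methods. Log2 CPM used a prior count of 2, and ratios had 0.5 added to each count. Exact permutation tests of single values were two-sided. The software was edgeR 4.0.16 and DESeq2 1.42.0 under R 4.3.3, and the procedure was tested on simulated counts. Total counts per library ran from 663096 to 2829903. Every pair of libraries differed beyond sampling noise (chi-square at least 28.0 times its degrees of freedom). The alternatives were other scalings, filters, and tests, a replicate block, rat names only, and leaving out each library. Named miRNAs were the members, the 5 most abundant, the 5 most like miR-148a-3p, and the passing names of the lists. The names carrying the seed letters elsewhere, the summary over the 10 most abundant, and the marker values were added to these. The members and lists were chosen with earlier results of these data known. The mRNA libraries were not used here.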

Additional observations from a re-analysis of the deposited data

How the results depend on the processing

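All comparisons are relative to the other counted miRNAs, and the Na2SeO3 libraries hold fewer counts. With 3 libraries per group every exact permutation test is limited to p = 0.1. The scalings moved the median log2 fold change of all names from 0.079 with TMM to 0.27 with library size only, -0.015 with upper quartile, and 0.012 with DESeq2's size factors.

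Beyond the settings above, miR-148a-3p also passed with DESeq2's size factors in edgeR (-0.44), with at least 10 counts in every library (-0.39), and with rat names only (-0.41). In these 3 settings, with upper-quartile scaling (-0.47), with DESeq2's test (-0.44), and without Na2SeO3 library 3, the members that passed numbered 2 instead of 1 (1 to 2 with each library left out). Over all names the passing share in these settings was 35.2%, 41.2%, 39.3%, 34.9%, 32.3%, and 23.3%, in the order given, against 34.6%, so 2 of 6 members is near it. With each library left out, its log2 fold change ran from -0.53 to -0.23 and its adjusted p (edgeR) from 0.0419 to 0.35. With upper-quartile scaling, miR-148a-5p reached the fold change threshold (-1.003), so that 1 member was a DEmiRNA. miR-148b-3p was at 0.077 with library size only and at -0.21 to -0.046 with each library left out, and miR-152-5p at -0.024 to 0.27, the lowest value without control library 2. The log2 arm ratio differences ran from 0.33 to 0.71 for miR-148a, -0.090 to 0.26 for miR-148b (-0.078 without Na2SeO3 library 3), and -0.21 to 0.17 for miR-152 under the same omissions. Of the cholesterol list, 1 name passed with library size only, DESeq2's test, no filter, at least 10 counts in every library, or the replicate block, and 0 to 3 with each library left out. The family's share differed by -3.95 to -1.05 percentage points with each library left out.

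Same-numbered libraries come from different animals, and their deviations from the group means correlated across names at -0.17, -0.18, and -0.26. These values gave no sign of a pairing by number, but with 3 libraries per group they cannot exclude a shared batch. With the replicate block the log2 fold change of miR-148a-3p was -0.40 and that of miR-148a-5p -0.91, and it changed no call of a member, while over all names 97 in place of 118 passed the adjusted p-value.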

Other observations

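The letters of the family seed, CAGUGCA, were searched on the strand itself in the 693 rat mature names with a RefSeq sequence (GRCr8). They stood at bases 2 to 8 in the 3 family strands only, and at another position in 9 names, so that 12 names (1.73%) held them anywhere. In miR-130a-3p, miR-130b-3p, and miR-301b-3p they were bases 1 to 7, that is, shifted by a base from the family's seed. The shift is shown by miR-130a-3p beside miR-148a-3p, with these letters in capitals:
rno-miR-130a-3p: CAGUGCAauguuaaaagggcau
rno-miR-148a-3p: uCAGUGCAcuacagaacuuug

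These strands were rare in the lens capsule. miR-130a-3p stood at 47.8 ± 6.03 and 43.9 ± 2.26 CPM in the control and Na2SeO3 groups (SD, n = 3 each; log2 fold change -0.11, adjusted p = 0.736, edgeR), miR-130b-3p was counted 3 to 8 times per library, miR-301a-3p, for which no sequence was matched, 2 to 10 times, and miR-301b-3p in none of the 6 libraries, which allows up to 3 counts in each. Of the names with the letters at another position, 4 were tested. miR-139-5p, with the letters at bases 5 to 11, was lower (log2 fold change -0.51, adjusted p = 0.0314, edgeR), and miR-130a-3p, miR-17-5p, and miR-106b-5p had log2 fold changes of -0.11, -0.14, and 0.038 and did not pass.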
